A study of Drosophila melanogaster with 4 samples.

Results

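Isolated binding sites of ASH1 and FSH, which lie in long stretches of chromatin without any other peak of either protein, were described in S2-DRSC cells. All peaks of both proteins on chromosome arms X, 2L, 2R, 3L and 3R and on chromosome 4 were combined, and peaks separated by at most 1000 bp were joined into domains. A domain was called isolated when the nearest domain was at least 15 kb away on both sides. This applied to 604 of 7796 domains, or 7.75%, which hold 687 of 10405 ASH1 peaks and 580 of 8438 FSH peaks. The members were thus chosen by the positions of the same peaks that are compared here, and all values are descriptions of these lists.

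S2-DRSC cells are an established culture of embryonic origin kept by the Drosophila RNAi Screening Center. Cross-linked chromatin of untreated cells was precipitated with antibodies named ASH1N and ASH1C against ASH1, and with antibodies labelled FSH-S and FSH-S+L against FSH, giving 4 libraries. The title of one FSH sample names the short isoform, whereas the deposited protocol describes an antibody for the long isoform only and one for both isoforms. Which antibody that sample was made with is not resolved here. The authors merged the libraries of each protein before they called peaks against input chromatin. Every FSH value therefore includes that library, whichever antibody it was made with. Replicates cannot be compared, and no test was made. Positions refer to BDGP Release 5. An annotation of this release was not used here, so that a gene is named only where a genome browser view of the study displays it, and genome sequence is not shown.

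ASH1 is a histone methyltransferase and FSH a BET protein, which attaches to acetylated histones by its bromodomains. Both belong to the Trithorax group, whose members maintain active gene expression, whereas Polycomb group proteins maintain repression. Polycomb response elements (PREs), boundary elements and enhancers of developmental genes can lie far away from the promoter they act on. The bithorax complex with its 3 homeotic genes (Ubx, abd-A, Abd-B), which specify the identity of body segments, is the classical example.

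Isolated domains were short and simple. Their median length was 785 bp, compared to 1215 bp for all other domains. At most 1 peak of each protein was present in 495 isolated domains (82.0%), against 72.1% of the other domains. A single peak formed 192 isolated domains (31.8%), against 18.6% of the others. A further 303 isolated domains (50.2%) consisted of 1 ASH1 peak and 1 FSH peak, against 53.6% of the others. Domains with 5 or more peaks were also found, but made up only 4.97% of isolated and 7.49% of other domains. All isolated domains together covered 0.875 Mb.

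The nearest neighbouring domain was 22.5 kb away in the median of the isolated domains (quartiles 18.1 and 32.6 kb), and 2.92 kb away for the other domains. On the farther side the median was 44.8 kb, and the longest unbound stretch next to an isolated domain extended over 350 kb. Both neighbours were at least 50 kb away for 59 isolated domains, and at least 100 kb away for 5. Of the sequence between domains (105 Mb in all), 39.9% lay directly next to an isolated domain, a share that follows in large part from the rule. Near the threshold, the domains just inside it were 15.010, 15.012 and 15.022 kb away from their neighbour, and the domains just outside it 14.997, 14.961 and 14.954 kb. Those inside had ASH1 only with a score of 247 (3R, 25011599 to 25012634), ASH1 at 3100 with FSH at 626 (3R, 3711684 to 3713100) and both at 3100 (2L, 4793820 to 4794884). Those outside had both proteins, with ASH1 at 3100 and FSH at 2395 (2R, 11398605 to 11399680), ASH1 at 171 and FSH at 134 (X, 11814678 to 11817251), and ASH1 at 2955 and FSH at 3100 (2L, 12402849 to 12405545). These scores are those of the authors' peak caller and grow as the P value falls, up to 3100, a value shared by the peaks at the top of both lists. Between 15 and 16 kb there were 67 domains, and between 14 and 15 kb there were 58.

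Both proteins were found in most isolated domains, but less often than elsewhere. ASH1 and FSH peaks were present together in 408 of 604 isolated domains (67.5%, Wilson 95% confidence interval 63.7% to 71.2%) and in 5790 of 7192 other domains (80.5%, 79.6% to 81.4%). Only ASH1 was found in 133 isolated domains (22.0%, 18.9% to 25.5%), against 15.6% (14.8% to 16.5%) of the others. Only FSH was found in 63 isolated domains (10.4%, 8.24% to 13.1%), against 3.87% (3.44% to 4.34%) of the others. The intervals of isolated and other domains do not overlap for any of these classes, but they treat domains as independent and cover counting error only. Read in the other direction, 18.5% of all FSH-only domains were isolated (63 of 341), compared to 10.6% of all ASH1-only domains (133 of 1257) and 6.58% of all domains with both proteins (408 of 6198). Where both proteins were present, an ASH1 and an FSH peak overlapped by at least 1 bp in 407 of the 408 isolated domains. The same held for 5776 of the 5790 other domains with both proteins, so that this was not particular to isolated sites.

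**Figure D1:**
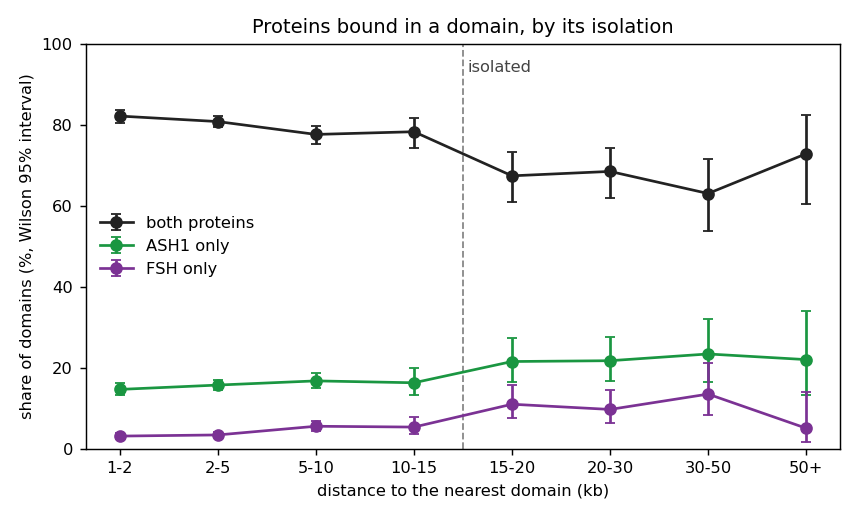
Share of domains with both proteins, with ASH1 only and with FSH only (y axis, percent, bars are Wilson 95% intervals) by distance to the nearest domain (x axis, kb). Left of the dashed line, at distances under 15 kb, the share with both proteins lies between 77.7% and 82.2%, and right of it, in isolated domains, between 63.1% and 72.9%.

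The share of domains with both proteins was lower in the classes above 15 kb than in those below, as seen in the plot of composition by distance, but it also varied among the classes below. The share with both proteins was 82.2% for domains 1 to 2 kb from the nearest one, 80.8% at 2 to 5 kb, 77.7% at 5 to 10 kb and 78.3% at 10 to 15 kb. Among isolated domains it was 67.4% at 15 to 20 kb (218 domains), 68.5% at 20 to 30 kb (216), 63.1% at 30 to 50 kb (111) and 72.9% at 50 kb and above (59). The intervals at 1 to 2 kb (80.6% to 83.7%) and at 5 to 10 kb (75.4% to 79.8%) do not overlap. Those of the isolated classes overlap with each other, and the class at 50 kb and above (60.4% to 82.6%) also overlaps with those below 15 kb. The share with FSH only was between 3.14% and 5.57% in the classes below 15 kb, and between 5.08% and 13.5% in the isolated classes.

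The strength of the peaks was compared by the score of the authors' peak caller, which was read as -10 times log10 of its P value for enrichment over input. Scores are compared within each protein's list only, and the highest peak of each protein represents a domain. A score of 3100 is shared by 18.3% of all ASH1 and 17.7% of all FSH peaks, and a few peaks lie above it, up to 3233.06. Peaks at 3100 have no order among themselves, and scores above 3100 are described as part of the same top class. The rank of a peak is its percentile within its own list, and tied peaks share the middle of their ranks. Ranks and correlations were taken from the scores as given, so that the few scores above 3100 count as higher there.

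ASH1 peaks were weaker in isolated domains. The median ASH1 score was 640 (95% interval of the median 479 to 776, quartiles 171 and 2206, 541 domains) in isolated domains, and 1243 (1184 to 1303) in the others. A score below 100, close to the cut-off of the peak caller at 50, was found for 15.9% of isolated and 7.42% of other domains with ASH1. In contrast, FSH peaks had a median score of 998 (760 to 1182, quartiles 253 and 2860, 471 domains) in isolated domains and of 879 (833 to 934) in the others, and these intervals overlap. When peaks were joined over at most 500 bp, the order for FSH turned round, with 812 in isolated and 824 in other domains. A score of 3100 or more was reached by FSH in 21.7% of isolated and 21.9% of other domains with FSH, and by ASH1 in 18.5% of isolated and 25.8% of other domains with ASH1.

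**Figure D2:**
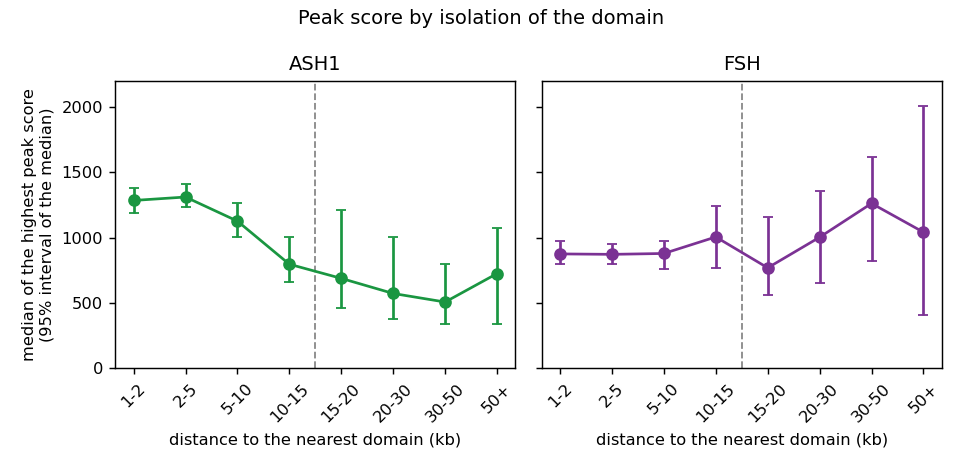
Median of the highest peak score per domain (y axis, error bars are 95% intervals of the median) for ASH1 and FSH by distance to the nearest domain (x axis, kb), with isolated domains right of the dashed line. The ASH1 median is 1285 in the closest class and 507 at 30 to 50 kb, while the FSH median lies between 769 and 1262 in all classes.

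For ASH1, the score was already lower in domains that only just missed the threshold. The ASH1 median was 1285 at 1 to 2 kb, 1311 at 2 to 5 kb, 1127 at 5 to 10 kb and 796 at 10 to 15 kb. In isolated domains it was 688 at 15 to 20 kb, 572 at 20 to 30 kb, 507 at 30 to 50 kb and 725 at 50 kb and above, and the intervals of these last classes overlap. Such an order was not seen for FSH, whose medians were 876, 872, 879 and 1005 in the classes below 15 kb and 769, 1003, 1262 and 1042 in the isolated classes.

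Since single-protein domains have low scores, the comparison was repeated for domains made of exactly 1 ASH1 peak and 1 FSH peak, of which 303 were isolated and 3854 were not. In this class too, the ASH1 score was lower in isolated domains, with a median of 852 (688 to 1189) against 1436 (1347 to 1512). The median FSH score was 812 (616 to 1089) in isolated pairs and 662 (627 to 704) in other pairs, so that the intervals overlap. The rank of the FSH peak exceeded that of the ASH1 peak in 150 of 303 isolated pairs (49.5%, 43.9% to 55.1%), compared to 37.4% (35.9% to 38.9%) of the other pairs. Pairs with both peaks at 3100 have no order, but nearly all count here as FSH above ASH1 because the lists differ in the middle rank of their ties. Without the pairs in which both scored 3100 or more, an alternative chosen after the data had been seen, the share was 46.9% (41.1% to 52.6%) of 286 isolated and 32.6% (31.1% to 34.2%) of 3572 other pairs.

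Isolated pairs were also narrow and closely aligned. The ASH1 peak had a median length of 723 bp in isolated pairs (interval 675 to 775 bp) and of 907 bp (887 to 930 bp) in other pairs. For FSH, the median peak length was 767 bp (709 to 814 bp) in isolated and 989 bp (966 to 1009 bp) in other pairs. The centres of the overlapping ASH1 and FSH peaks were 33.0 bp apart in the median of 302 isolated pairs, against 50 bp in other pairs. They were within 100 bp of each other in 81.8% of isolated pairs (77.0% to 85.7%) and in 70.8% of other pairs (69.4% to 72.3%). Peak length and distance between centres were not separated from the score, and their relation to it was not tested.

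**Figure D3:**
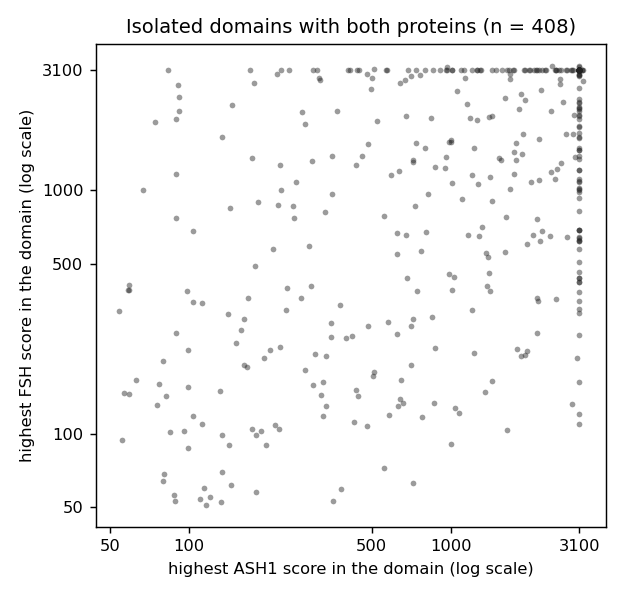
Highest ASH1 score (x axis) and highest FSH score (y axis, both log scales) of each of the 408 isolated domains with both proteins, 1 point per domain. Points spread over the whole range of both scores and pile up at 3100, the value that the strongest peaks share.

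Isolated domains differed widely among themselves. Across the 408 with both proteins, the scores of ASH1 and FSH had a Spearman's rho of 0.47, compared to 0.42 across the 5790 other domains with both proteins. This is a description across domains, which share libraries and input. Both proteins scored 3100 or more in 38 isolated domains (6.29%), against 9.18% of other domains. At the other end, every peak scored below 100 in 78 isolated domains (12.9%, 10.5% to 15.8%), against 6.42% (5.88% to 7.01%) of the others.

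Isolated sites with a single protein mostly had low scores in their own list. The 133 isolated ASH1-only domains had a median ASH1 score of 134 (101 to 171), against 164 (152 to 180) for other ASH1-only domains. Scores from 500 to below 3100 were found in 5.26% (2.57% to 10.5%) of the isolated and 19.1% (16.9% to 21.5%) of the other ASH1-only domains. Only 8 of the isolated ASH1-only domains scored 500 or more. The strongest was found on chromosome 3R from 25658040 to 25662117, with a score of 3100 and a length of 4078 bp, 20.2 kb from the nearest domain. The next were on 2L from 19735435 to 19736788 (score 1706) and on 3L from 20465931 to 20467164 (score 1619). The 63 isolated FSH-only domains had a median FSH score of 297 (128 to 509), against 172 (138 to 218) for other FSH-only domains. Scores from 500 to below 3100 were found in 31.7% of the isolated and 22.7% of the other FSH-only domains. Scores of 3100 or more were found in 6.35% and 2.16%, and the intervals overlap in both classes. Of the 63 isolated FSH-only domains, 24 scored 500 or more in the FSH list. A score of 3100 was reached on 2R from 19091248 to 19092535, on 3R from 8741189 to 8741794 and on X from 18813068 to 18813734, and in 1 further domain. The first 3 were 48.0, 42.6 and 25.2 kb away from the nearest domain, so that strong FSH peaks without any called ASH1 peak occurred deep inside unbound chromatin.

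The most isolated domain was located on chromosome 2L from 14850588 to 14852153, with 144 kb of unbound sequence on one side and 121 kb on the other. Its single ASH1 peak scored 1016 and its single FSH peak 1071, ranks of 54.2 and 59.4 in their lists. The second was also on 2L, from 17962957 to 17964207, 117 kb from the nearest domain and with scores of 3100 for ASH1 and 2296 for FSH. Both of these sites were thus of medium to high strength, but weaker peaks also occurred among the 10 most isolated domains. On 3L from 24224429 to 24224970, for example, FSH scored 134 (rank 15.3). Of the 10 most isolated domains, 8 had both proteins, 1 had ASH1 only and 1 had FSH only. Among all isolated domains, 67.5% had both proteins. The FSH-only one was on 3L from 10071576 to 10072110 with a score of 1211, 105 kb from the nearest domain, and the ASH1-only one on 3R from 23264141 to 23264542 with a score of 185. On 3R, a domain from 3469124 to 3470601 was 93.6 kb from the nearest one and held 2 ASH1 peaks and 1 FSH peak. The FSH peak scored 3206, within the top class of 3100 or more. The stronger ASH1 peak scored 970 (rank 53.1), but it ended at 3469734, before the FSH peak began at 3470032. An overlapping pair on 2R from 17860325 to 17861195 had the higher rank for ASH1, which scored 3095 (rank 80.6), against 685 (rank 49.0) for FSH.

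Among the 38 isolated domains with both proteins at 3100 or more, the most isolated was on 2R from 7415109 to 7417501, with 51.6 and 51.2 kb of unbound sequence on its sides and 2 peaks of each protein. It was followed by domains on 2R from 358113 to 359538, 43.0 kb from the nearest one, and on 3L from 12602192 to 12602972, which is only 781 bp long and 36.2 kb away. A few isolated domains were long. The longest extended over 22060 bp on 3R from 26556832 to 26578891, owing to an FSH peak of 19475 bp, while its ASH1 peak was 3780 bp long. On 3L from 16028210 to 16047322, a domain of 19113 bp held 2 FSH peaks and 1 ASH1 peak. Its strongest FSH peak was 16205 bp long, and its ASH1 peak of 2186 bp began beyond the end of that peak. The largest number of peaks was found on 2L from 5144993 to 5152924, with 6 ASH1 and 5 FSH peaks in 7932 bp.

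The bithorax complex contained several isolated domains. In the browser view of the complex 17 domains were found, of which 4 were isolated (23.5%, against 7.75% of all domains). All 4 had overlapping peaks of both proteins. Of the 13 other domains, 9 had both proteins. Across the genome the shares with both proteins were 67.5% of isolated and 80.5% of other domains, and the counts in the complex are too small for a comparison. Genes and elements were located by reading off the axis of that view, with a tolerance of 1 kb for elements. The study displays this locus as an example of joint binding, also with Polycomb group proteins, and reports its homeotic genes as silent in these cells. The isolated domain at bx, an enhancer region inside the Ubx gene, extended from 12528311 to 12529160 on chromosome 3R. It had unbound sequence of 45.9 and 44.9 kb on its sides, an ASH1 score of 3100 and an FSH score of 2963. The second isolated domain lay from 12624004 to 12624936, at the drawn border between the regulatory domains bxd/pbx of Ubx and iab-2 of abd-A. This border was looked up after the peak had been seen. Both proteins had a score of 3100 there, and the nearest domain was 30.7 kb away.

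**Figure D4:**
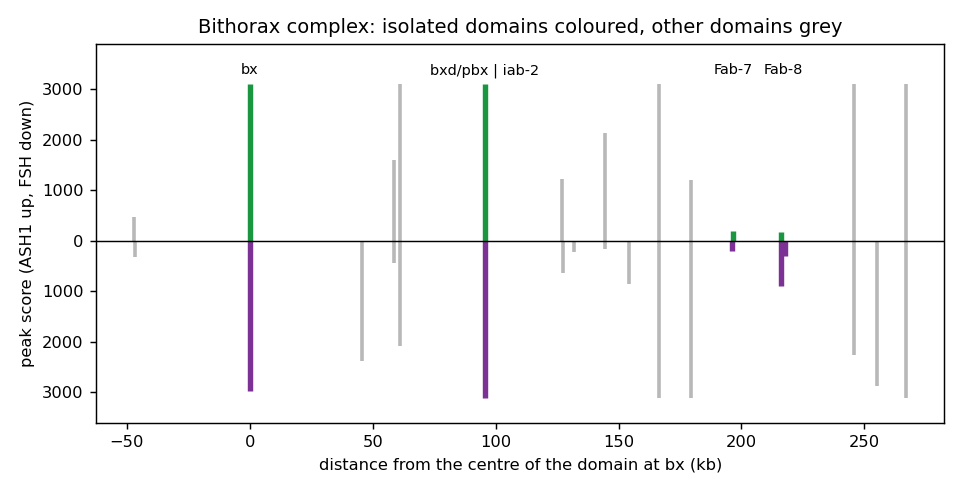
Score of every peak in the bithorax complex (y axis, ASH1 upwards, FSH downwards) by its distance from the centre of the domain at bx (x axis, kb), with peaks of isolated domains in colour and all others in grey. The isolated domains at bx and at the border of bxd/pbx and iab-2 have scores of 2963 to 3100, and those at Fab-7 and Fab-8 of 184 to 894.

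The isolated domains at Fab-7 and Fab-8, boundary elements between the regulatory domains of Abd-B, were much weaker. At Fab-7 (12724602 to 12725882) the ASH1 peak scored 194 and the FSH peak 204, ranks of 21.3 and 22.8. At Fab-8 (12744564 to 12746592) the ASH1 peak scored 184, and 2 FSH peaks scored 894 and 289. Their nearest neighbours were 15.8 and 18.7 kb away, so that both lay close to the threshold. The elements Mcp and Fab-6 of the same region had both proteins as well, but their nearest domains were 11.6 and 12.3 kb away, and the domains at bxd were 1.09 kb from each other. The complex thus held both strong and weak isolated sites.

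A further isolated domain was found at H15 on chromosome 2L, which encodes a T-box transcription factor. The study displays H15 as a repressed gene that is also bound by Polycomb group proteins. The domain extended from 5403245 to 5405341, with 36.8 and 16.1 kb of unbound sequence on its sides. ASH1 (5403382 to 5404196) and FSH (5403245 to 5404182) both scored 3100, and a weak FSH peak of 107 followed (5404796 to 5405341). This domain belonged to a run of 4 consecutive isolated domains between 5365568 and 5461816, all with both proteins. Their ASH1 scores were 413, 3100, 1288 and 3100 and their FSH scores 3100, 3100, 650 and 2156 in the order of the chromosome. None of the 10 domains in the other browser views was isolated. Over all domains the share was 7.75%, so that this small count shows no difference. These views show Dad and Cyp12c1, Spf45, and the genes from dj to Aly, and the nearest domain was at most 6.03 kb away from any domain in them. The views were picked by the study as examples, so they do not represent all isolated domains.

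Isolated domains stood alone or in runs of consecutive isolated domains. The rule favours runs, because neighbours in a run share an unbound stretch that already fulfils it on one side, so the counts are only a description. Of the 604, 369 (61.1%) were neighbours of at least 1 other isolated domain, while 235 stood alone between other domains. There were 87 runs of 2 and 52 runs of 3 or more isolated domains. Of the 230 pairs of consecutive isolated domains, 109 had both proteins in both domains, 94 in 1 of them and 27 in neither. The longest run comprised 11 domains over 752 kb at the end of 3L next to the centromere, from 23707533 to 24459228. Of these, 9 had both proteins and 2 had FSH only, and their scores lay between 79.5 and 3100 for ASH1 and between 104 and 3100 for FSH. The second longest run held 7 domains over 170 kb on X from 14496403 to 14666474, with median scores of 395 for ASH1 and 145 for FSH, and 3 of its domains had ASH1 only. A run of 4 on 3R from 8569303 to 8741794 contained no domain with both proteins, but 2 with ASH1 only and 2 with FSH only.

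**Figure D5:**
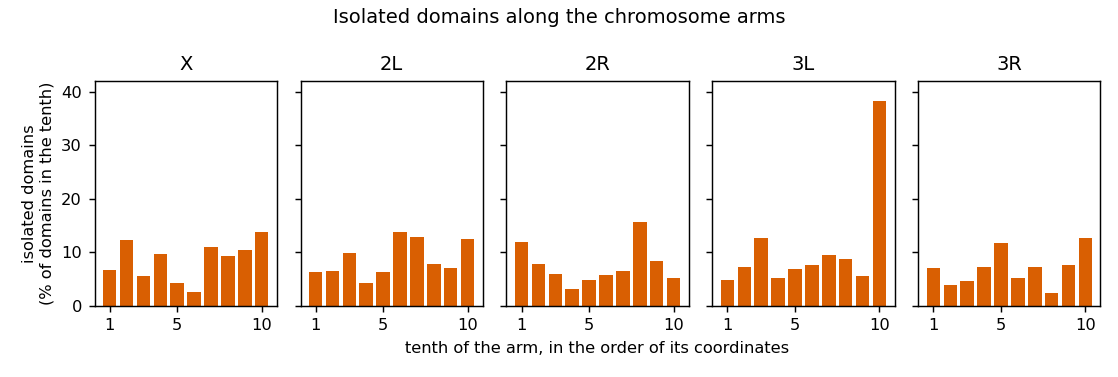
Isolated domains as a percentage of all domains (y axis) in 10 equal segments of each large chromosome arm (x axis, segments of the span up to the last peak, in the order of the coordinates). The last segment of 3L, next to the centromere, stands out with 38.3%, and the next highest value is 15.7% on 2R.

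Along the arms, isolated domains were found everywhere. They made up 8.24% of the domains on X, 8.29% on 2L, 7.05% on 2R, 8.59% on 3L, 6.71% on 3R and 9.64% on chromosome 4 (8 of 83), and the intervals of all arms overlap. When each of the 5 large arms was divided into 10 equal segments, the share was between 2.37% and 15.7% in all but 1 of them. The exception was the last segment of 3L, where 23 of 60 domains were isolated. Reads with several matches were kept by the authors at one of them only up to a set number of matches, and reads with more were left out. This concerns repeated sequence such as that near centromeres, and its part in these values was not tested. Without the segments next to the centromere, an alternative chosen after the data had been seen, both proteins were present in 66.4% of 529 isolated domains and in 80.5% of the others.

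The differences between isolated and other domains were compared within each arm. The share with both proteins was lower in isolated domains on 6 of 6 chromosomes or arms, with the lowest value on X, where it was 58.3% in isolated domains and 74.8% in the others. The median ASH1 score was also lower on 6 of 6. The median FSH score was higher in isolated domains on 4 (2L, 2R, 3L and 3R), and lower on X (414 against 704) and on chromosome 4 (1488 against 2341). Isolated sites on X had the lowest median scores and the shortest median length. Their median ASH1 score was 301, compared to 699 to 797 on the large autosomal arms. Their median length was 667 bp, compared to 800 to 889 bp. The other domains of X likewise had the lowest medians of all arms, with an ASH1 score of 820 and a length of 989 bp, so that this was not particular to isolated sites. The depth behind a score is unknown, so the scores do not show whether less protein was bound on X. On chromosome 4, the 8 isolated domains were long, with a median of 2248 bp against 1252 bp for its other domains, and ranged from 452 to 9162 bp. Of these 8 domains, 6 had both proteins, 1 had ASH1 only with a score of 57.4 and 1 had FSH only with a score of 558.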

How the data were processed

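ChIP-seq libraries of S2-DRSC cells, 2 antibodies for each protein, were aligned by the authors to BDGP Release 5 with Bowtie 0.12.7. Reads with several matches were kept at one of them up to a set number of matches, and reads with more were left out. The alignments of each protein were merged with SAMtools 0.1.9, and peaks were called against input with MACS 1.4.0 (P value cut-off 1e-05). Deposited lists give a position and a score for each peak. Their minimum score of 50.02 lies just above 50, which is -10 times log10 of the cut-off, so the score was read on that scale. The depth behind a peak is unknown.

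From these lists, 343 ASH1 and 386 FSH peaks on mitochondrial, unplaced and heterochromatic sequences were left out. The remaining peaks of both lists were joined over gaps of at most 1000 bp. Domains with a neighbour on 1 side only were not counted as isolated. Shares have Wilson 95% intervals, and medians have binomial 95% intervals. Since the antibodies were pooled and domains are not replicates, no test was made. Domains are named by rules: the 10 most isolated, those next to the threshold, the strongest single-protein domains, those with both proteins at 3100 and most isolated, the longest, those with most peaks, runs of 3 or more, and those in browser views. Values are given for examples of each. The members, the rules and the alternatives were chosen with earlier results of these data known. The symbols of 7 genes were searched in a RefSeq table (Release 6, names only), and 7 matched.

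Calculations used pandas 2.3.3 and numpy 2.4.6 with scipy 1.17.1 in Python 3.11.15, and plots matplotlib 3.10.9. Domains and distances were tested on simulated data and equalled those of BEDTools 2.31.1 for 7796 of 7796 domains. Alternatives were other isolation distances, other merging gaps, a minimum score, stricter overlap, domains at sequence ends, and leaving out chromosome 4 or the ends of arms next to the centromere.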

Additional observations from a re-analysis of the deposited data

How the results depend on the processing

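Isolated domains had both proteins less often than other domains in 11 of 11 alternatives. In the 9 alternatives that bear on the other values, they had FSH only more often, a lower median ASH1 score and a shorter median length. The median FSH score was higher in isolated domains in 8 of the 9, and the exception is given in the report. In domains with 1 peak of each protein, ASH1 was lower and FSH higher in isolated domains in 9 of 9, but the main intervals for FSH overlap. All alternatives reuse the same peaks, so these counts are not independent support. With merging gaps of 500 and 2000 bp, the isolated pairs even kept the main medians of 852 for ASH1 and 812 for FSH. Of 105 values, 78 stayed within the interval of the main value or, for counts, within 1.5 times of it. With an isolation distance of 10 kb, 1070 domains were isolated, 72.2% with both proteins and 8.22% with FSH only, and their median length was 849 bp. Of the other domains, 80.7% then had both proteins, so that this difference was smaller as well. With 20 kb 386 and with 30 kb 170 domains were isolated, and in the last case the median length was 712 bp and 86.5% had at most 1 peak per protein. A merging gap of 500 bp gave 88.2% of isolated domains with at most 1 peak per protein, and other domains with both proteins in 78.8% and medians of 1147 for ASH1 and 824 for FSH. A gap of 2000 bp gave 74.2% of isolated domains with at most 1 peak per protein and a median length of 857 bp, and other domains with both proteins in 82.6% and medians of 1468 and 1025. With scores of at least 100, 525 of the 604 domains were still isolated, and of 615 isolated domains in all, 18.7% had ASH1 only, with medians of 971 for ASH1, 1219 for FSH and 857 bp for the length. Both proteins were then present in 68.5% of isolated and 78.2% of other domains, a smaller difference than in the main setting. The other domains had medians of 1442 for ASH1 and 1036 for FSH. The ratio of the ASH1 medians, isolated to other, was 0.673, compared to 0.515 in the main setting. When peaks had to overlap by 50% of both, both proteins were counted in 63.6% of isolated and 76.3% of other domains. Without pairs in which both peaks scored 3100 or more, FSH ranked above ASH1 in 46.9% of isolated and 32.6% of other pairs. No paired analysis was possible because the libraries of each protein were pooled before peaks were called. Without read counts in the lists, the depth that limits weak peaks is unknown, and an absent peak does not show an absent protein.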
